A study of Mus musculus with 69 samples.

Results

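The comparison described here sets EZH2-mutant against wild-type embryonic stem (ES) cells by RNA-seq, with 3 libraries in each group, 6 of the 69 samples of the series. Members were chosen as the day 0 libraries of the deposited wild-type and mutant table, and 14180 of its 14772 genes were tested, those at 0.5 RPKM or more in at least 3 of its 18 libraries. RPKM scales reads by gene length and library size. All 6 libraries are from CJ7, an established mouse ES cell line, kept undifferentiated with LIF and serum on a layer of PMEF-N feeder cells, and none received a drug. The wild-type group carries no named change. The mutant group is labelled only as an EZH2 mutant, under column names beginning mu99. The labels give neither the allele nor whether the mutant is a single clone. They are silent on whether libraries of a group came from separate cultures. The p-values of this comparison therefore measure only the spread between libraries, estimated over all 18 libraries of the wild-type and mutant table. Other libraries of the series are used for side-by-side values. They are wild-type and mutant embryoid bodies, aggregates of differentiating cells, at day 4 and day 8 (3 libraries a group), and ES cells given 4 µM of the EZH2 inhibitor GSK343 or its solvent DMSO (2 libraries a group).

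EZH2 is the main catalytic subunit of Polycomb repressive complex 2 (PRC2), which methylates lysine 27 of histone H3 and so lays down the repressive mark H3K27me3. EED and SUZ12 are the other core subunits, and EZH1 is the paralog of EZH2. Polycomb repressive complex 1 (PRC1), with the ubiquitin ligase RING1B, is often found at the same sites. In ES cells these complexes lie over the CpG-rich starts of many developmental genes that are silent until differentiation.

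The promoters below belong to genes that were higher in mutant ES cells. They are shown because they differ in CpG content and in whether their start lies under H3K27me3. Each is the 250 bases before an annotated start, from RefSeq on GRCm38.p6 (the mm10 assembly of the files), written 5′ to 3′ on the strand of the gene with every CG in capitals.
Atp2a3, chr11:72960919-72961168, plus strand: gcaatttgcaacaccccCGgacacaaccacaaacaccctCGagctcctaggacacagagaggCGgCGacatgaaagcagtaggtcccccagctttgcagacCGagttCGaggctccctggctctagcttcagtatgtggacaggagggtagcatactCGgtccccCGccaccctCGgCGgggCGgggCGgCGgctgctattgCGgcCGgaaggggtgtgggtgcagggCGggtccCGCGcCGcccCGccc
A930004D18Rik, chr2:18037742-18037991, minus strand: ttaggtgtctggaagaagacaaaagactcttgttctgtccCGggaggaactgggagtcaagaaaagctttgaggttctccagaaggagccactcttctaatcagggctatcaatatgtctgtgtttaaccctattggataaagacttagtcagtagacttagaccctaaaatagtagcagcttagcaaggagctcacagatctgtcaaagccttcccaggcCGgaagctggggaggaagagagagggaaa
Mllt10, first start, chr2:18054987-18055236, plus strand: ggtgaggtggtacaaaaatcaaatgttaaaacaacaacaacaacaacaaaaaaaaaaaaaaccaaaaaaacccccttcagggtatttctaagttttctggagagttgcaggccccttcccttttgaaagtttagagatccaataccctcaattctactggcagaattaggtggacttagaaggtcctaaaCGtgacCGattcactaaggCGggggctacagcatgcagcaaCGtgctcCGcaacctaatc
Mllt10, inner start, chr2:18064335-18064584, plus strand: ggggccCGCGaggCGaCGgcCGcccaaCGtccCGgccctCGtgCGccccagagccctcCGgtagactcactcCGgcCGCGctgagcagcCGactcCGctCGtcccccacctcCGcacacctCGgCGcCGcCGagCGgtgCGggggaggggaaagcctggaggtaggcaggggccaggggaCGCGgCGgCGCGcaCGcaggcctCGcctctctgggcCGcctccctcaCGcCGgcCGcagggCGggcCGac
1700030C10Rik, chr12:20815780-20816029, minus strand: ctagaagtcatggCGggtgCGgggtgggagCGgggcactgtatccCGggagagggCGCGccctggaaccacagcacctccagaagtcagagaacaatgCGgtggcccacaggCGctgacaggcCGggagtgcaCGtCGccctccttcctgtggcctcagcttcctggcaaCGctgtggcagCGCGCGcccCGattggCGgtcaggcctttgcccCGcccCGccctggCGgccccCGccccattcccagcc
Ceacam20, chr7:19965162-19965411, plus strand: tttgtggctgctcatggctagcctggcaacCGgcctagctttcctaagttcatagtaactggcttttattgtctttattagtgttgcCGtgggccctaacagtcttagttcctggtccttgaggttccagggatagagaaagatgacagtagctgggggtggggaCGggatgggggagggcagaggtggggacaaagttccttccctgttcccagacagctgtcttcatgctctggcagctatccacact

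The starts of Atp2a3, A930004D18Rik and the first start of Mllt10 lie inside wild-type H3K27me3 peaks, with 20, 2 and 5 CG in these windows. The inner start of Mllt10, with 36 CG, lies 1442 bp outside the same peak, and 1700030C10Rik (21 CG) and Ceacam20 (3 CG) lie far from any. CG was counted as those letters, which read the same on both strands. It occurs in 99.0% of the 11153 windows of this length for tested genes, at a median of 16 per window. Which start of Mllt10 the cells used was not tested. Slc52a3 has no window here.

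The 6 libraries held 10.8 to 23.5 M (mega) reads, recovered from the values, of which 4.78% to 25.4% came from the ribosomal RNA locus Rn45s. Its shares were highest in the second library of each group. The 10 markers of undifferentiated ES cells were each at 1 RPKM or more in every library, and their summed level was 1448 to 2152 RPKM in wild type and 2406 to 2549 RPKM in the mutant. The 12 feeder fibroblast markers summed to 39.2, 32.0 and 511.5 RPKM in libraries 1, 2 and 3 of wild type and to 33.4, 151.1 and 96.9 RPKM in the mutant. All 12 were at 1 RPKM or more in wild-type library 3. None was at 0 except Lum in mutant library 1. Wild-type library 3 also correlated less with its own group across genes (0.933 and 0.916) than with mutant library 3 (0.967). In bulk RNA a change in the number of cells of a type and a change of RNA per cell cannot be told apart, and the part of the feeder share in the results below was not tested.

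**Figure D1:**
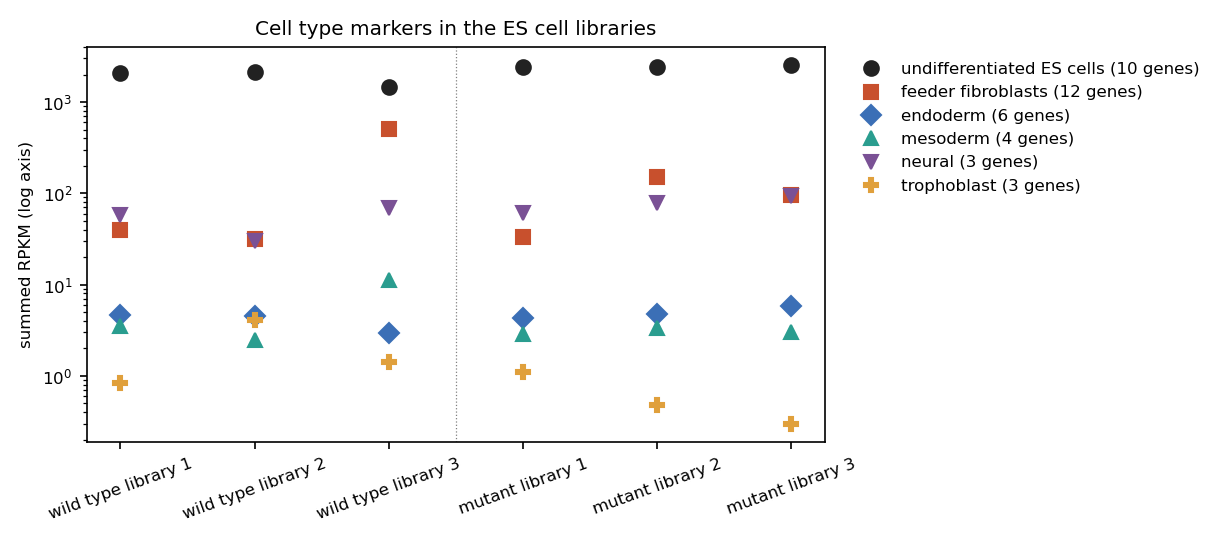
Summed RPKM of cell type marker lists (vertical log axis) in each of the 6 ES cell libraries (horizontal axis), with 1 symbol per list. ES cell markers lie highest throughout, and the feeder sum of 511.5 RPKM in wild-type library 3 stands above the other 5 libraries.

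Which transcripts differed in undifferentiated cells when EZH2 was mutated? In limma with Benjamini-Hochberg adjustment at 0.05, 9 genes were higher (0.0635% of those tested) and 4 lower (0.0282%) in the mutant, 13 in all (0.0917%). At an unadjusted p under 0.05, 529 (3.73%) were higher and 328 (2.31%) lower. All 3 mutant libraries lay above all 3 wild-type libraries for 1001 genes (7.06%) and below them for 840 (5.92%). The median over all genes tested of the size of the difference in log2(RPKM + 1) was 0.17, while the median SD between libraries was 0.28 in wild type and 0.23 in the mutant. No gene passed when only these 6 libraries were fitted, without the embryoid bodies that share the estimate of spread. In that fit 900 genes were at an unadjusted p under 0.05 and the smallest adjusted p was 0.0558.

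Ezh2 itself, the gene targeted in the mutant, was at 47.6, 62.5 and 37.2 RPKM in libraries 1, 2 and 3 of wild type, against 23.6, 20.7 and 24.4 RPKM in those of mutant cells. The groups did not overlap, and Ezh2 fell by 1.04 on the log2 scale (95% interval -1.41 to -0.67, adjusted p = 0.0372). Between 612 and 1671 reads remained in each mutant library. Which stretch of the gene was altered cannot be read from these levels. The call was lost without any 1 library other than wild-type library 3, with an adjusted p of up to 0.205 and a log2 difference of -0.85 to -1.22 over the 6 fits.

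The largest falls were in genes of the Y chromosome. Eif2s3y, which encodes a translation initiation factor subunit, was at 33.9, 47.0 and 59.7 RPKM in wild type, against 0.494, 1.77 and 2.01 RPKM in mutant cells (log2 difference -4.33, 95% interval -5.03 to -3.63, adjusted p = 1.19e-05). Ddx3y, an RNA helicase gene, was at 13.9, 9.66 and 30.5 RPKM in wild type, against 0.170, 1.01 and 2.00 RPKM in mutant cells (-3.16, -4.04 to -2.27, adjusted p = 0.00498). Uty, a member of the H3K27 demethylase family, was at 6.46, 7.12 and 15.5 RPKM in wild type, against 0.0795, 0.103 and 0.408 RPKM in mutant cells (-3.07, -3.72 to -2.43, adjusted p = 0.000152). No mutant library reached a wild-type library for any of the 3 genes, and each kept its call in all 6 fits that left out 1 library. Of 11 Y-linked genes listed 4 were tested, and Uba1y, the other one, had a log2 difference of -0.79 and did not pass. Whether the mutant and wild-type cells differ in their Y chromosome was not tested. Such a difference between lines cannot be told apart from an effect of the EZH2 mutation.

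The X-linked partners of these genes did not pass. Eif2s3x was at 6.43 ± 1.84 RPKM (SD, n = 3) in wild type and 7.11 ± 1.38 RPKM in the mutant, and Ddx3x at 167 ± 54.9 and 170 ± 49.6 RPKM (log2 difference 0.03, of either sign over the alternatives). Usp9x had a log2 difference of -0.17 (-0.93 to 0.59), which was 0.04 without the second library of both ES cell groups. Of 9 listed X-linked genes, partners and Xist included, 0 passed. Xist, the noncoding RNA of X inactivation, was at 2.73, 3.44 and 4.68 RPKM in wild type, against 2.69, 0.975 and 2.42 RPKM in mutant cells (-0.64, adjusted p = 0.711). Among genes with a mean log2 level over 2, the median difference was -0.05 on X (286 genes) and 0.01 to 0.08 on the autosomes. Y transcripts share sequence with their X partners, so reads could have been split between them.

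**Figure D2:**
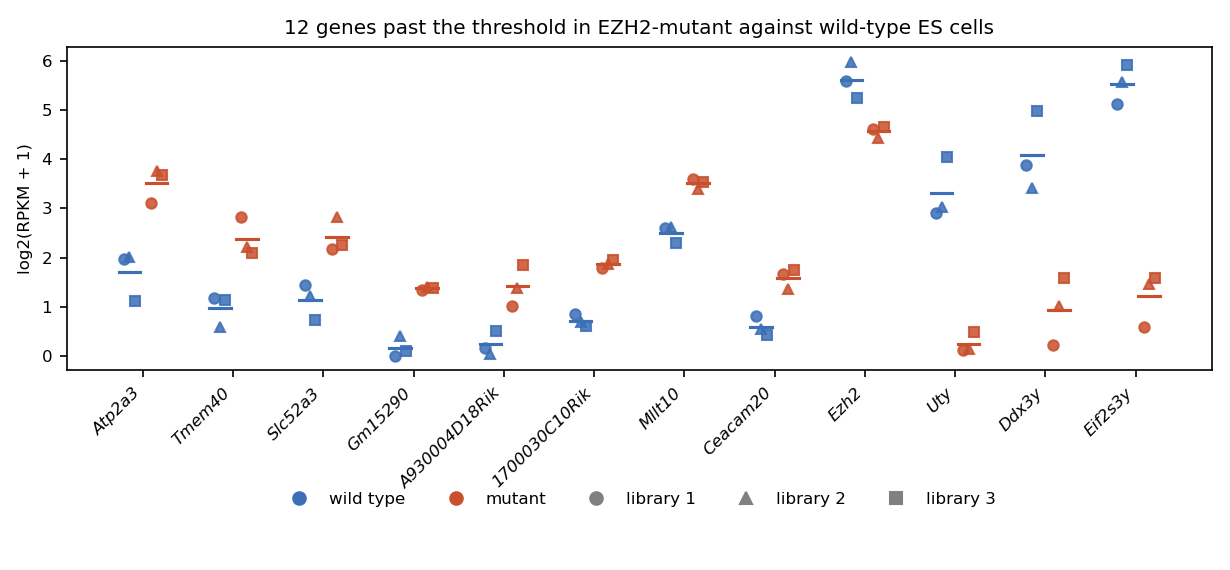
Level as log2(RPKM + 1) (vertical axis) of 12 of the 13 genes past the threshold (horizontal axis), with wild type in blue and mutant in orange, 1 symbol shape per library and a bar at each group mean. The mutant points lie above the wild-type points for 8 genes and below them for Ezh2 and the 3 Y-linked genes.

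Of the 9 raised genes 8 are described by name. Atp2a3 encodes a calcium pump of the endoplasmic reticulum. It was at 2.92, 3.03 and 1.15 RPKM in wild type, against 7.60, 12.5 and 11.9 RPKM in mutant cells, a ratio of means of 4.5 (log2 difference 1.82, 95% interval 1.14 to 2.5, adjusted p = 0.0433). Of 18 tested genes for calcium pumps and channels 1 was called, Atp2a3, where 0.0917% of all genes tested were. This list, and those below around other raised genes, were chosen with earlier results of these data known. Each holds its raised gene, so the counts called are no separate support. The list median was -0.09. Among the others, Stim2 had a log2 difference of 0.25, Itpr1 of -0.63 and Orai2 of -0.27.

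Slc52a3 encodes a riboflavin transporter. Its levels were 1.73, 1.31 and 0.656 RPKM in wild type, against 3.49, 6.09 and 3.76 RPKM in mutant cells (1.29, 0.85 to 1.72, adjusted p = 0.0272). Of 12 vitamin transporter genes tested 1 was called, 3 were higher at an unadjusted p under 0.05, Slc52a3 included, and 2 were lower. Over all genes tested 3.73% were higher and 2.31% lower by that measure, and 0.0917% were called. The folate receptor gene Folr1 was at 7.80, 2.72 and 4.37 RPKM in wild type, against 10.2, 12.8 and 15.9 RPKM in mutant cells (1.30, adjusted p = 0.557). Slc23a1, for vitamin C uptake, differed by -0.96 and did not pass.

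Ceacam20 encodes a cell adhesion protein of the CEA family. It was at 0.754, 0.465 and 0.336 RPKM in wild type, against 2.18, 1.56 and 2.36 RPKM in mutant cells (0.996, 0.71 to 1.28, adjusted p = 0.00524). The groups did not overlap. Only 1 of the 15 libraries outside the mutant ES cells reached 0.5 RPKM, so the gene was tested only because it is high there. Of 10 tested CEA, galectin and adhesion genes, Ceacam20 was the 1 called, where 0.0917% of all genes tested were. Lgals3 had a log2 difference of 1.10 (adjusted p = 0.863), Cdh3 of -0.71 and Cdh1, for E-cadherin, of -0.49.

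Mllt10 encodes AF10, a cofactor of the histone methyltransferase DOT1L. It had the highest RPKM of the raised genes in wild type, at 5.09, 5.13 and 3.93 RPKM in wild type, against 11.2, 9.50 and 10.7 RPKM in mutant cells (1.01, 0.64 to 1.38, adjusted p = 0.0410). Of 7 genes of that complex 1 was called, Mllt10, where 0.0917% of all genes tested were. Mllt6 differed by 0.10, Dot1l by -0.37 and Mllt1 by -0.11, each with a sign that changed under at least 1 alternative.

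The others named were Tmem40, which encodes a membrane protein, and 3 long noncoding RNAs by RefSeq class. Tmem40 was at 1.27, 0.493 and 1.20 RPKM in wild type, against 6.06, 3.68 and 3.29 RPKM in mutant cells (1.41, 0.92 to 1.90, adjusted p = 0.0304). Gm15290 was at 0, 0.313 and 0.0669 RPKM in wild type, against 1.54, 1.64 and 1.59 RPKM in mutant cells (1.21, 0.97 to 1.45, adjusted p = 9.89e-05). None of the 15 other libraries in the fit reached 0.5 RPKM, so Gm15290 passed the filter on low values only through the group where it is high, and its p is no independent support. Its reads could not be recovered because no length was given for it.

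A930004D18Rik was at 0.114, 0.0284 and 0.425 RPKM in wild type, against 1.02, 1.61 and 2.59 RPKM in mutant cells (1.18, 0.75 to 1.6, adjusted p = 0.0392), from 8, 1 and 35 reads against 80, 65 and 242. 1700030C10Rik was at 0.814, 0.600 and 0.513 RPKM in wild type, against 2.45, 2.66 and 2.85 RPKM in mutant cells (1.16, 0.81 to 1.5, adjusted p = 0.00644). The groups did not overlap for any of these 4 genes. In wild type none of the 9 raised genes was above 5.13 RPKM in any library.

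Most of these calls depended on single libraries, while no called gene changed sign. Over the 6 fits that left out 1 library each, Gm15290 kept its call (adjusted p up to 0.00148), a gene that, like Ceacam20, was tested only through the mutant ES cell libraries. Ceacam20 lost it only without mutant library 3 (0.0533), and 1700030C10Rik without either second library or mutant library 3 (up to 0.0539). Slc52a3 lost it in 4 fits, all but those without wild-type library 1 or mutant library 1 (up to 0.124). A930004D18Rik lost it in 4, all but those without wild-type library 3 or mutant library 1 (up to 0.202). Atp2a3 kept it only without mutant library 1 (otherwise up to 0.235), Tmem40 only without wild-type library 1 (up to 0.128), and Mllt10 in none (up to 0.202).

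Were the raised genes ones that carry Polycomb marks in wild-type cells? The authors' deposited table calls genes PRC2 targets or not, by a rule not given in the sources used here. That rule may itself use these data, so shares of marked genes are no separate support. It marks 30.5% of the 13394 tested genes it lists as targets, and 5 of the 8 raised genes it lists, Atp2a3, Slc52a3, A930004D18Rik and Mllt10 among them. None of the 4 lowered genes is marked. Tmem40, 1700030C10Rik and Ceacam20 are marked as not targets, and Gm15290 is not listed. A start within 1 kb of a wild-type H3K27me3 peak, in the authors' peaks merged over stages, was found for 23.7% of the 11154 genes with an annotated start. It was found for 3 of the 7 raised genes with one, Atp2a3, A930004D18Rik and Mllt10. A Ring1B peak lay as near to A930004D18Rik and Mllt10 only among these 7, and to 3.78% of the 11154. A930004D18Rik and Mllt10 lie under the same H3K27me3 peak, so they are not separate loci. None of the 7 had a start within 1 kb of a merged Suz12 or Ezh2 peak, as 195 and 127 of the 11154 did. None lay as near to Suz12 peaks of single ES cell libraries either. Those peaks lay near 46 genes in wild-type Suz12 library 2, and 257 and 65 in mutant Suz12 libraries 1 and 2.

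Over all 4091 marked targets the median log2 difference was -0.05, against 0.02 over 9303 genes marked as not targets. The targets' median was 0.01 where genes needed 1 RPKM in at least 3 ES cell libraries, so its sign is not stable. Of targets 4.79% were higher and 3.28% lower at an unadjusted p under 0.05, against 3.32% and 1.90% of the others. Differences over 1 were found in 1.0% of targets and 0.473% of the others, and differences under -1 in 0.929% and 0.301%. Targets had a lower median level in wild type, 3.02 against 11.2 RPKM.

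A930004D18Rik and Mllt10 are near neighbours on chromosome 2. A930004D18Rik spans 18025187 to 18037741, and Mllt10 18055160 to 18212390, in mm10. An H3K27me3 peak of 40345 bp, from 18022799 to 18063143, covers the first gene and the left end of the second, with 3 Ring1B and 3 Suz12 peaks in the same stretch. Skida1, between them and chosen after its values were seen, was at 0.0531 ± 0.0560 RPKM (SD, n = 3) in wild type and 0.714 ± 0.213 RPKM in the mutant (0.70, limma adjusted p = 0.654) and did not pass. Use of strand in counting is not given, so reads of overlapping transcripts here cannot be told apart.

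Other neighbours of raised genes were also chosen after their values were seen. Igsf23, 11.7 kb from Ceacam20, differed by 0.62 (limma adjusted p = 0.397) and Shpk, 206 kb from Atp2a3, by 0.42 (adjusted p = 0.482). Neither passed. Closer to Atp2a3, Camkk1 (23 kb) differed by 0.21, Zzef1 (34.0 kb) by 0.06 and Ctns (190 kb) by -0.10. At an unadjusted p under 0.05, 3.73% of all genes tested were higher. Within 250 kb, 1 of 10 tested genes around Ceacam20 and 1 of 12 around Atp2a3 were, Igsf23 and Shpk. By the same measure 0 of 5 around Slc52a3, 0 of 11 around Tmem40 and 0 of 3 around Gm15290 were higher.

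How did the same genes differ after differentiation? The embryoid body libraries share the filter and the estimate of spread with the ES cells, so they are not separate evidence. At day 4 all 9 raised genes were higher in mutant embryoid bodies, and 8 of 9 were at day 8. Of all genes tested 48.5% and 46.8% were. Some of these signs rest on values near 0. At day 4 means in wild type and mutant were 0 and 0.0698 RPKM for Gm15290 and 0.0484 and 0.0584 RPKM for Ceacam20. At day 8 the Ceacam20 means were 0.0113 and 0.0513 RPKM. At each stage 1 of the 9 passed, 1700030C10Rik, where 0.0282% and 1.30% of all genes passed as higher. It was at 0.758, 0.169 and 0.506 RPKM in wild type, against 3.45, 4.40 and 3.77 RPKM in mutant cells at day 4 (1.74, adjusted p = 6.54e-05). At day 8 it was at 0.237, 0.347 and 0.185 RPKM and 1.46, 1.33 and 1.74 RPKM (1.0, adjusted p = 0.00980). Day 8 libraries also differed in pluripotency genes. Pou5f1 was at 27.8, 28.7 and 222 RPKM in wild type, against 112, 376 and 236 RPKM in mutant cells (1.91, limma adjusted p = 0.117). The groups overlapped for Pou5f1. Over 29 pluripotency genes the median difference was 1.93, and their part in the day 8 differences was not tested.

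The other raised genes had smaller differences after differentiation. All were chosen for their ES cell difference, so smaller values in other libraries are no evidence of a change with stage. For Atp2a3 the log2 difference was 0.26 at day 4 and 0.34 at day 8, and for Mllt10 it was 0.50 and 0.17. Mllt10 in wild-type embryoid bodies was at 7.93 to 11.1 RPKM at day 4 and 10.2 to 10.8 RPKM at day 8, near the mutant ES cell level. Ceacam20 was at most 0.145 RPKM in any embryoid body library. A test of the difference between the day 4 and ES cell effects called 0 genes by limma, with 276 (1.95%) at an unadjusted p under 0.05, and that for day 8 called 1 (0.00705%), Gm15290, with 826 (5.83%). Eif2s3y, Ddx3y and Uty were lower at both stages, with log2 differences of -3.62 to -5.59, where 0.0212% of genes passed as lower at day 4 and 0.212% at day 8. Ezh2 was lower at day 8 (-0.95, adjusted p = 0.0185), and at day 4 its difference of -0.80 did not pass (adjusted p = 0.168).

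GSK343 blocks the catalytic activity of EZH2 in unmutated cells. The second GSK343 ES cell library held only 5.01 M reads, against 19.6 M in the first and 17.7 and 20.5 M with DMSO. Of the 8 raised genes measured in GSK343 and DMSO ES cells, 7 were higher with GSK343, against 59.2% of all genes tested in both. Ceacam20 was lower (-0.16). By limma none of the 8 passed adjustment, and 3 were higher at an unadjusted p under 0.05, where 2.81% of genes were. Slc52a3 was at 2.90 and 2.10 RPKM with DMSO and 5.45 and 4.04 RPKM with GSK343 (0.71, adjusted p = 0.760). Mllt10 was at 6.60 and 6.21 RPKM with DMSO and 8.06 and 9.66 RPKM with GSK343 (0.41, adjusted p = 0.839).

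The 3 Y-linked genes were present in both of those groups. Eif2s3y was at 59.6 and 43.6 RPKM with DMSO and 56.6 and 50.3 RPKM with GSK343. Ezh2 differed by 0.22 (adjusted p = 1). The GSK343 table was scaled separately from the mutant table, so only differences within each are compared.

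**Figure D3:**
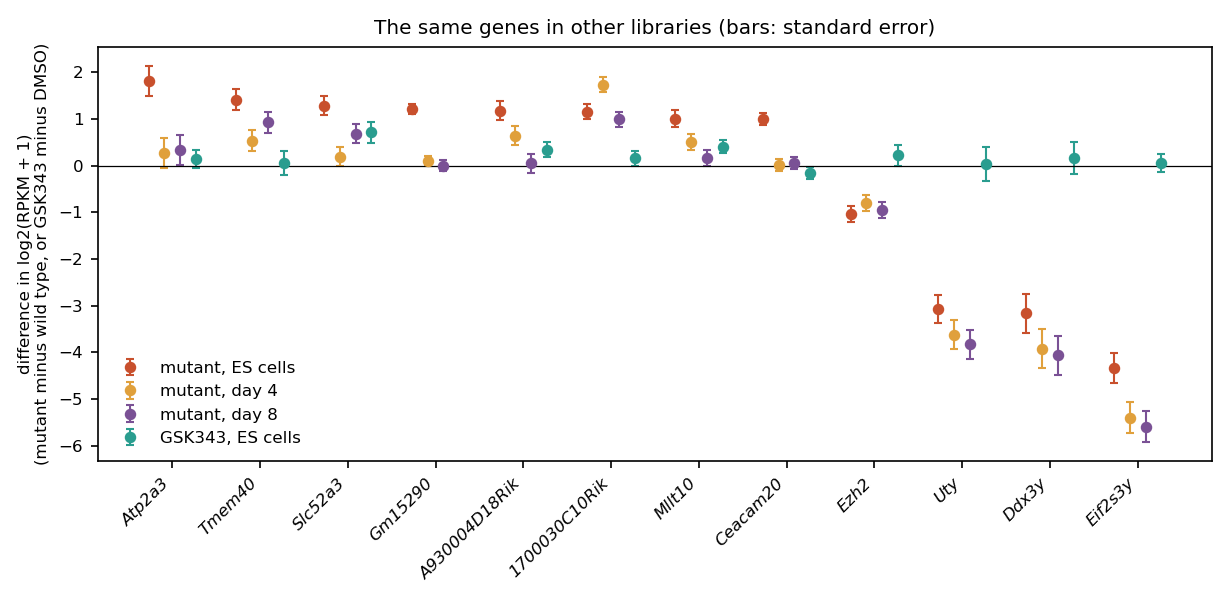
Differences in log2(RPKM + 1) (vertical axis) of 12 of the 13 genes past the threshold (horizontal axis), in mutant against wild-type ES cells, day 4 and day 8 embryoid bodies and in GSK343 against DMSO ES cells, with bars of 1 standard error. The Y-linked genes lie between -3.07 and -5.59 in the mutant at each stage and near 0 with GSK343, where Gm15290 has no value.

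Transcripts of the other Polycomb subunits did not pass. Of 6 core PRC2 genes only Ezh2 was called, where 0.0917% of all genes tested were. Eed was at 65.0, 60.5 and 112 RPKM in wild type, against 63.0, 74.98 and 164 RPKM in mutant cells, and Suz12 at 84.9, 139 and 107 and at 84.7, 75.7 and 143 RPKM. The groups overlapped for both, and the sign of each difference changed with the libraries used. Ezh1 was at 20.4 ± 9.43 and 14.5 ± 4.49 RPKM, and Rbbp7, a histone binding subunit, at 130.2 ± 2.35 and 94.9 ± 22.6 RPKM. Of 7 accessory subunit genes none passed, and Epop had the largest difference (0.90, adjusted p = 0.686), beside Phf19 at 0.22, Jarid2 at -0.11 and Phf1 at -0.28.

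Of 20 PRC1 genes none passed and the median difference was -0.15. Bmi1 differed by 0.84 and Rnf2, which encodes RING1B, by 0.45, while Phc1 and Phc2 differed by -0.45 and -0.43. Among 10 genes of the H3K27 demethylase and COMPASS families Uty was the 1 called, where 0.0917% of all genes tested were. Kmt2c differed by 0.42, Setd1b by 0.24 and Kmt2d by -0.50.

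Developmental regulators that Polycomb is known to silence were mostly low in both groups. Of 85 listed genes 57 were tested, 50 of them under 5 RPKM in all 6 libraries. None passed, and 4 were higher and 0 lower at an unadjusted p under 0.05, where 3.73% and 2.31% of all genes were. The median was 0.03, against 0.00 over all genes. Meis1 was at 1.24, 0.932 and 2.93 RPKM in wild type, against 4.47, 7.22 and 9.84 RPKM in mutant cells (1.61, adjusted p = 0.862), and the growth factor gene Bmp4 differed by 1.02. The mesoderm factor gene T was at 1.85, 0.657 and 8.61 RPKM in wild type, against 0.204, 0.176 and 0.0762 RPKM in mutant cells (-1.63, adjusted p = 0.981). Its highest level was in wild-type library 3, the one with the highest feeder markers. Fgf8 differed by -0.77.

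Pluripotency genes were expressed in both groups. Of 29 tested naive and general pluripotency genes 0 passed, 22 had a positive difference, where 49.96% of all genes tested did, and the median was 0.37. Pou5f1 was at 341, 297 and 369 RPKM in wild type, against 389, 509 and 439 RPKM in mutant cells, without overlap (0.40, adjusted p = 0.999). Nanog was at 67.5 ± 22.2 and 91.3 ± 6.48 RPKM (0.48), and Sox2 at 132 ± 13.2 and 132 ± 3.48 RPKM, with a difference of 0.01 that turned negative when libraries were rescaled by median ratios. Klf4 and Esrrb were lowest in the third library of both groups. Tbx3 differed by 1.44 (adjusted p = 0.338) and Tcl1 by 1.32, while Dppa3 differed by -2.13 (adjusted p = 0.810) and Tfcp2l1 by -0.25. Of 17 formative and primed genes 0 passed, with a median of -0.12. Foxd3 differed by 1.10, Dusp6 by 0.61, Fgf5 by -0.65 and Lin28b by -0.32.

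No listed lineage gene passed, and levels ran from near 0 to over those of the raised genes. Nodal, a signal of mesendoderm formation, was at 29.2, 21.2 and 25.8 RPKM in wild type, against 30.2, 32.6 and 39.1 RPKM in mutant cells. Of 19 primitive streak and mesendoderm genes the median was -0.17, with Nodal at 0.41, Eomes at 0.37 and the Wnt target Sp5 at -1.51. Of 27 endoderm genes it was 0.04, with the basement membrane genes Lama1 at 1.07 and Col4a1 at 0.91, and Lamb1 at -0.36 and Cubn at -0.35. Gata4 was at 1.05 ± 0.512 and 2.34 ± 0.358 RPKM (0.73, adjusted p = 0.999), Gata6 differed by -0.13, and the 6 libraries held at most 0.333 RPKM of Sox17, whose sign was not stable, and 0.681 RPKM of Pax6.

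Trophoblast genes had the lowest median of the non-sex-linked lists, -0.64 over 21 genes, of which 5 were lower at an unadjusted p under 0.05, where 2.31% of all genes were, and 0 passed. Fgfr2, a growth factor receptor gene, was at 4.33, 3.75 and 4.09 RPKM in wild type, against 1.21, 0.691 and 0.372 RPKM in mutant cells (-1.55, adjusted p = 0.0520). Krt19, a keratin gene, was at 21.1, 18.5 and 4.88 RPKM in wild type, against 4.65, 2.74 and 2.29 RPKM in mutant cells (-1.73, adjusted p = 0.430). Bmp4, shared with this list, and Hand1 (0.62) were at the other end.

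Of 39 imprinted genes 36 had a negative difference, the median was -0.40, and 0 passed, where 50.04% of all genes tested had a negative difference. H19, Igf2, Ascl2, Phlda2 and Peg10 are also in the trophoblast list, so the medians of these lists are not separate results. The imprinted list also holds the feeder marker Dcn. It was at 0.321, 1.08 and 24.9 RPKM in wild-type libraries 1, 2 and 3 (log2 difference -0.06). Phlda2 was at 13.7 ± 6.93 and 5.26 ± 3.16 RPKM (-1.28), and the cell-cycle inhibitor gene Cdkn1c at 4.51 ± 1.19 and 1.79 ± 1.07 RPKM (-1.03, adjusted p = 0.840). Mest differed by 0.23 and Zdbf2 by 0.03. Of 24 germline genes the median was -0.06, with Stag3 at 0.52, Mael at 0.43, Ddx4 at -0.83 and Tdrkh at -0.63.

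**Figure D4:**
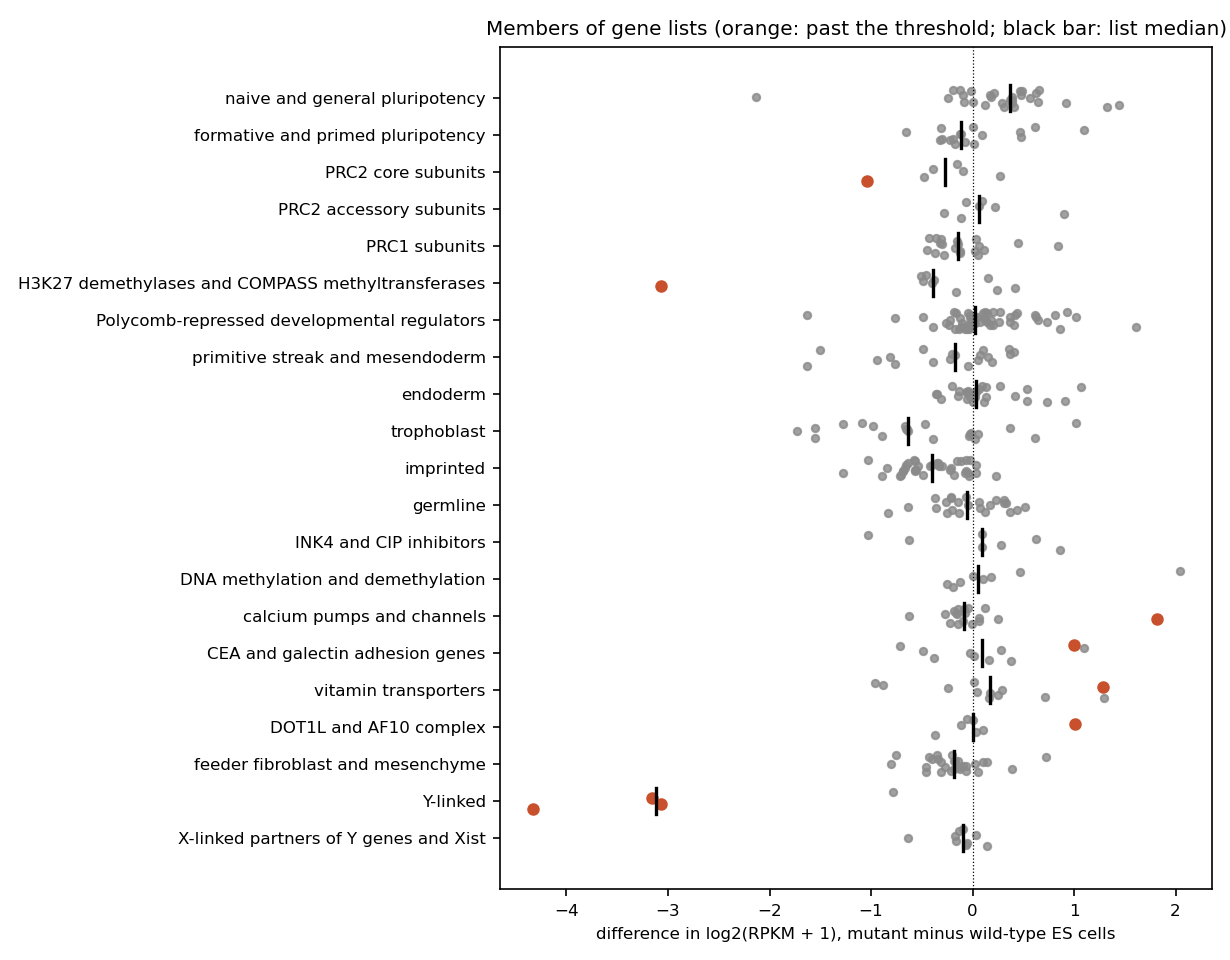
Difference in log2(RPKM + 1), mutant minus wild-type ES cells (horizontal axis), of each tested member of 21 gene lists (vertical axis), with members past the threshold in orange and a bar at each list median. Points past the threshold are few, and the trophoblast and imprinted medians of -0.64 and -0.40, from lists that share members, lie left of 0.

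Cell-cycle inhibitors and DNA methylation genes gave a few large but uncalled differences. Cdkn2a, a classic Polycomb-silenced locus, was at 3.16, 5.37 and 9.11 RPKM in wild type, against 9.39, 15.2 and 8.51 RPKM in mutant cells (0.86, limma adjusted p = 0.767). The groups overlapped. Cdkn2b differed by 0.63 and Cdkn1a by -0.62. Of 8 DNA methylation genes 0 passed, and Dnmt3l, a cofactor of de novo methylation, was at 21.2, 12.5 and 21.5 RPKM in wild type, against 61.3, 45.7 and 161 RPKM in mutant cells (2.04, adjusted p = 0.482). Tet2 differed by 0.47, Tet1 by -0.25 and Dnmt1 by -0.19.

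Feeder and mesenchyme genes, 28 in all, had a median of -0.18 with 0 called. S100a4 and Vim, at 25.1, 11.8 and 554 and at 71.2, 49.4 and 456 RPKM in wild type, were far higher in wild-type library 3 and had differences of 0.72 and 0.39 that turned negative without wild-type library 2. Fn1 differed by -0.80 and Mmp2 by -0.75. Lists of 9 neural, 28 p53 target, 24 cell division, 21 hypoxia and glycolysis and 22 ribosomal protein genes also held 0 called genes, with medians of -0.15, -0.13, -0.05, -0.15 and 0.18. None of 21 listed 2-cell-like genes was tested.

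Some uncalled genes had larger differences than most called ones. Those named are the 5 largest in each direction at an unadjusted p under 0.05, with no overlap and a group mean of 5 RPKM or more on the higher side. The tubulin gene Tuba3a was at 6.33, 6.87 and 1.37 RPKM in wild type, against 35.3, 27.3 and 15.8 RPKM in mutant cells (2.33, adjusted p = 0.0941). Dusp27 differed by 2.00 and the autophagy receptor gene Calcoco2 by 1.81 (adjusted p = 0.0668 for both), and Khdc3 by 1.81, beside Dnmt3l above. At day 8 the differences of Tuba3a, Dnmt3l, Calcoco2 and Khdc3 passed, at 2.83, 3.79, 2.36 and 3.59, and that of Dusp27 did not (0.65, adjusted p = 0.510). These are the libraries in which the pluripotency genes had the median difference of 1.93.

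The interferon-induced GTPase gene Gbp2 was at 10.3, 10.6 and 19.7 RPKM in wild type, against 1.25, 0.697 and 0.873 RPKM in mutant cells (-2.86, adjusted p = 0.0879). Its near-identical copy Gbp2b differed by -2.58, and reads could have been split between them, as within the family of Khdc3. The zinc transporter gene Slc39a8 differed by -2.14 and Igfbp3, for a growth factor binding protein, by -1.97, beside Dppa3 above. At day 8 Gbp2 and Gbp2b differed by 0.85 and 0.91, Igfbp3 by 0.50 and Slc39a8 by -0.88, and none passed.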

How the data were processed

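RNA-seq of CJ7 cells was deposited by the authors as tables of RPKM, and the submitters' processing notes name HOMER 4.10.3, edgeR, STAR 2.5.3 and featureCounts 1.6.1 with build mm10 but no role for each. Sources used here do not state the use of strand. Values were whole multiples of 1 read (100% within 0.02), which gave the depths. The libraries carry a further scaling by the authors. Peak positions and the PRC2 target call are the authors' deposited ones.

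Tests used limma 3.58.1 (trend, R 4.3.3) on log2(RPKM + 1), with all 18 libraries and 6 groups of the table in 1 fit, Benjamini-Hochberg adjustment over 14180 genes and a threshold of 0.05. Differences on this scale understate changes of low genes. GSK343 and DMSO libraries were fitted separately. Scripts were tested on simulated data.

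Members and gene lists were chosen with earlier results of these data known. Named are all genes called, 16 fixed genes, the 5 largest uncalled differences each way and, in each of 21 described lists, the 2 largest rises and falls and any called. Of 27 lists, 6 are given by counts alone. Of the genes so named, 2 are not reported here, 1 of them called, and all counts include both.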

Additional observations from a re-analysis of the deposited data

Results flagged for a closer look

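Gm15290 was the 1 gene whose effect of the mutation differed between day 8 embryoid bodies and ES cells by an interaction test (day 8 effect minus ES cell effect -1.21 on the log2 scale, limma adjusted p = 0.0185). It was at 1.54, 1.64 and 1.59 RPKM in the 3 mutant ES cell libraries and listed at 0 in all 6 day 8 libraries. The call was lost in 12 of the alternatives, with adjusted p-values over all of them from 0.000107 to 0.401. None of the 15 libraries outside the mutant ES cells reached 0.5 RPKM, so the gene was tested only because it is high in that group, and the interaction restates that. The same difference at day 4 did not pass (-1.11, adjusted p = 0.0505).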

How the results depend on the processing

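Of 21 alternatives 17 were planned and 4 were chosen after seeing the data. The 9 higher and 4 lower genes became 3 and 12 with a pseudocount of 0.1, and 828 and 783 with library weights. They became 0 and 0 with only the 6 ES cell libraries and also without the second library of every group (304 at an unadjusted p under 0.05 by limma, smallest adjusted p 0.0607). The test on recovered reads (voom) called 3 higher and 3 lower. The higher genes were 2 without the second and 1 without the third of both ES cell groups. Leaving out 1 library gave 1 to 11 higher and 3 to 5 lower genes. The causes were not tested. With the replicate block 5 were higher within stages, of which 2 were among the 9, and with the block over all stages 24 were higher and 17 lower. Deviations of same-numbered libraries correlated at 0.632, 0.0494 and 0.655, so not every pair was over 0.1 and the numbers were not taken to pair the libraries, although the second library had the highest Rn45s share in all 6 groups. Mutant library 2 correlated best with wild-type library 1 (0.122). The third library had the most reads and the lowest Rn45s share in each group. The main fit has no replicate block, so its p-values leave any effect shared by same-numbered libraries in the spread. The median of PRC2 targets moved to 0.00758 at 1 RPKM or more, 0.00574 with library weights and -0.00366 without the third library of both ES cell groups.

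No called gene changed sign, and 68 of 89 uncalled genes never did. Over the fits that left out 1 library, the log2 differences of genes whose sign turned ran as follows: Eed -0.14 to 0.55, Suz12 -0.43 to 0.0229, Sox2 -0.0766 to 0.0521, Klf4 -0.18 to 0.72, Esrrb -0.68 to 0.42, Sox17 -0.0378 to 0.0873, Tfcp2l1 -0.58 to 0.0855, Lin28b -0.63 to 0.0802, Phf19 -0.00883 to 0.42, Jarid2 -0.20 to 0.0509, Stag3 -0.15 to 1.07, Zdbf2 -0.16 to 0.16, Orai2 -0.53 to 0.0983, Mllt6 -0.0788 to 0.35, Dot1l -0.89 to 0.18, Mllt1 -0.23 to 0.0666, S100a4 -0.36 to 2.36, Vim -0.23 to 1.36 and Ddx3x -0.19 to 0.28. Without second libraries, in every group or in ES cells alone, the turned values were Suz12 0.20, Esrrb 0.20, Tfcp2l1 0.0418, Zdbf2 -0.13, S100a4 -0.61, Vim -0.52 and Usp9x 0.0432. Without the third library of both ES cell groups they were Sox2 -0.0826, Sox17 -0.10, Lin28b 0.0462, Stag3 -0.0600, Orai2 0.0475, Mllt6 -0.0129 and Mllt1 0.0992. With library weights they were Sox2 -0.0939, Sox17 -0.15, Zdbf2 -0.11, Cdkn1a 0.54, Orai2 0.25, Mllt6 -0.25, Mllt1 0.0673 and Ddx3x -0.00800, and with median-ratio rescaling Sox2 -0.00816.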
